A study of Mus musculus with 16 samples.

Results

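The variable (V) segments of the immunoglobulin light chains were followed in spleens of PKR knockout (KO) and wild-type (WT) mice during imiquimod treatment. All gene symbols beginning with Igkv (kappa) or Iglv (lambda) were taken, with 1 transcript per symbol, the one with the highest mean fragment count. This gave 163 segments of 55291 symbols in the tables, 160 kappa and 3 lambda. GENCODE lists 102 of them as V genes, 60 as V pseudogenes and 1, Igkv4-71, as protein coding. Kappa segments lie on chromosome 6 in 20 families, 75 on the plus strand and 85 on the minus strand, and the 3 lambda segments lie on the minus strand of chromosome 16.

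The groups were KO spleens on days 0, 1, 2 and 5 of treatment and WT spleens on the same days, with 2 libraries in each of the 8 groups and 16 in all. PKR, encoded by Eif2ak2, is a kinase that senses double-stranded RNA. All mice were male C57BL/6. Treated mice had 62.5 mg of cream with 5% imiquimod, which activates Toll-like receptor 7 and is used to model psoriasis, put daily on shaved back skin. Day 0 stands for no treatment, and there was no group with vehicle cream. Each library pooled spleen cells of 2 mice after red cell lysis, and neither the ages of the mice nor the deleted exons of the KO allele were stated. Libraries were stranded, ribosomal RNA-depleted total RNA with 35026754 to 67333830 fragments each, of which 24598 to 143529 fell on the V segments.

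A light chain gene is assembled in developing B cells by joining 1 V segment to 1 joining (J) segment upstream of a constant (C) region, and each B cell normally keeps 1 light chain, kappa or lambda. Most mouse B cells carry kappa, whose locus holds many V segments upstream of Igkj1 to Igkj5 and the single constant gene Igkc. The mouse lambda locus holds few: Iglv1 joins mainly to the J segments of Iglc1 and Iglc3, and Iglv2 and Iglv3 mainly to that of Iglc2. Plasma cells, the antibody-secreting end stage of B cells, hold far more light chain RNA per cell than resting B cells. In RNA from whole spleens, a change in the number of cells using a segment and a change in RNA per cell cannot be told apart.

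Sequences are shown for the segments on which the results turn, since segments of a family can be so alike that fragments may be assigned to either. Each is the coding strand from GENCODE M21, read 5′ to 3′, and ends at the 3′ end of the V exon, where the J segment is joined. Capitals run from the last in-frame cysteine codon, the conserved cysteine that opens the third antigen-contact loop, to that end. Iglv1, with the most counts, and Igkv14-126, which gained the most share of V counts among kappa segments, are given as the coding part of the V exon, the last 300 bases of it at chr16:19085017-19085316 on the minus strand and all 298 bases at chr6:67896345-67896642 on the plus strand (mm10).
Iglv1: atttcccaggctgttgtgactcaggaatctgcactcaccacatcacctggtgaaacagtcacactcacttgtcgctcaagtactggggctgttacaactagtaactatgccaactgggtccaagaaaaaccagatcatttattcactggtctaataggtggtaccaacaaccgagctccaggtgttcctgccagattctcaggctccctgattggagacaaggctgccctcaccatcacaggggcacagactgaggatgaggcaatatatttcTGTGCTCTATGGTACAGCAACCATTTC
Igkv14-126: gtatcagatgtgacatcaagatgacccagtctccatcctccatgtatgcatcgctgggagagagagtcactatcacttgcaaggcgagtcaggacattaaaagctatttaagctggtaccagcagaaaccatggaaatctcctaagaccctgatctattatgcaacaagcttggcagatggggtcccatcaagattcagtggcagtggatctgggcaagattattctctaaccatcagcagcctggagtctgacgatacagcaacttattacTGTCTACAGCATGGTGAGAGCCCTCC

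The last 60 bases are given for the other lambda segments, for 3 abundant segments of the Igkv1 family, whose summed share was smaller on day 5, and for Igkv5-39 and Igkv4-91, whose levels differed between libraries of 1 group.
Iglv2: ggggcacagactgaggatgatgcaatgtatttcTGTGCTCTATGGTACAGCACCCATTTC
Iglv3: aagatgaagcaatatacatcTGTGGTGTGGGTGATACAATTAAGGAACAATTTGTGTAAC
Igkv1-117: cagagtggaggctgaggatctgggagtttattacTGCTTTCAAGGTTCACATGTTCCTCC
Igkv1-110: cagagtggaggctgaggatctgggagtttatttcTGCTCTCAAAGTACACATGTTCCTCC
Igkv1-135: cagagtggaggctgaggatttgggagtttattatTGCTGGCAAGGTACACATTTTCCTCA
Igkv5-39: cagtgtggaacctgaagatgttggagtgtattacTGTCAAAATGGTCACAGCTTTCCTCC
Igkv4-91: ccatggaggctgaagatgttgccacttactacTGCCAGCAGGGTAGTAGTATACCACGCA
Over the aligned transcripts Iglv1 and Iglv2 were 96.26% identical, and Iglv1 and Iglv3 57.74%. Igkv1-117 and Igkv1-110 were 97.51% identical, whereas the nearest segments to Igkv14-126 (Igkv14-111) and Igkv5-39 (Igkv5-45) shared 91.62% and 90.49%. Of the 111 segments tested, 54 had another segment at 95% identity or more, and no pair was identical. Values of such near copies, Iglv1 against Iglv2 and Igkv1-117 against Igkv1-110 included, are uncertain where the authors' counting could split their fragments.

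Of the 163 segments, 111 had enough counts to be tested, namely 100 of the 103 that are not pseudogenes and 11 of the 60 pseudogenes. A further 36 had counts in at least 1 library but a mean of at most 5.125. The remaining 16 had none in any library, which allows at most 3 counts per library, or 0.0856 CPM (counts per 1000000 fragments) in the library where a count weighs most. Levels below are CPM scaled with edgeR's TMM factors, and a share is a segment's percent of all V segment counts in a library. The 95% Wilson intervals of the shares printed for single segments and for lambda V reached at most 0.463 percentage points to either side, which covers counting error only. Changes were tested with edgeR's quasi-likelihood test and adjusted over all 18744 genes tested, and a call is an adjusted p under 0.05.

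The deposited labels were checked on Eif2ak2 and on marker genes. Eif2ak2 RNA was still present in KO libraries, at 12.4 and 15.4 CPM at day 0, 43.0 and 37.0 at day 1, 47.5 and 21.5 at day 2 and 15.8 and 18.8 at day 5. WT libraries had 24.9 and 26.6 CPM at day 0, 101 and 96.1 at day 1, 32.8 and 42.5 at day 2 and 29.2 and 30.2 at day 5. KO libraries were below WT libraries on days 0, 1 and 5, but the library labelled KO day 2 replicate 1 was above both WT libraries of its day, so the main results of that group are also given below without it. In edgeR's test Eif2ak2 was not called between KO and WT spleens on any day (averaged over days, log2 difference -0.77, adjusted p = 0.325). Among 12 T cell genes, 12 fell by day 2 in KO and 12 in WT spleens (median log2 changes -2.63 and -2.41, with 25.6% and 23.0% lower over all genes). Of 13 tested erythroid genes, 13 rose by day 5 in each genotype (22.8% in KO and 21.5% in WT spleens over all genes). Changes of V segments are therefore changes relative to an RNA pool whose other cell types also moved, and the part of that movement in the V segment results was not tested.

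V segment RNA was highest on day 2 of imiquimod treatment in both genotypes and lower again on day 5. Summed over all V segments, KO libraries held 555 and 639 CPM at day 0, 711 and 776 at day 1, 3888 and 2589 at day 2 and 745 and 913 at day 5. WT libraries held 662 and 527 CPM at day 0, 978 and 795 at day 1, 3687 and 2914 at day 2 and 1115 and 1442 at day 5. Every day 2 library lay above every library of the other days, and the day 5 libraries of both genotypes lay above those of day 0. V segments made up at most 0.387% of all fragments, in a KO day 2 library.

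**Figure D1:**
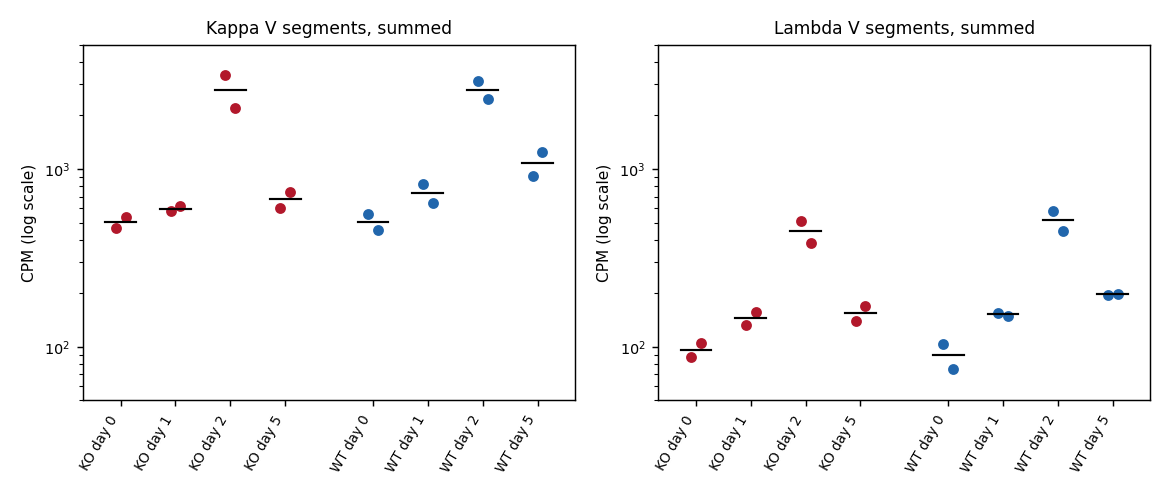
Summed CPM of the kappa (left) and lambda (right) V segments in each library, on log axes, with KO groups in red and WT groups in blue by day of treatment; points are libraries and lines are means of 2. Both sums peak on day 2, where kappa lies between 2206 and 3377 CPM and lambda between 383 and 580 CPM.

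On day 2 against day 0, 101 of the 111 tested segments rose and 1 fell in KO spleens, and 101 rose and 2 fell in WT spleens. Over all genes tested, 24.1% were called higher and 25.6% lower in KO spleens, and 22.3% higher and 23.0% lower in WT spleens. The median log2 change of the 111 tested segments was 2.39 in KO and 2.41 in WT spleens, against -0.06 over all genes tested in each. Of the segments that rose, 97 were the same in both genotypes. With 101 of the 111 rising in each, most had to be shared, so this overlap adds little. In either direction 49.6% of all genes were called in KO and 45.2% in WT spleens. Without the library labelled KO day 2 replicate 1, 98 segments were called in KO spleens, all among the 102 called with it, and the median was 2.09.

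Day 1 values were closer to day 0. In KO spleens 10 of the 111 tested segments rose and 2 fell (20.7% and 20.9% over all genes tested). In WT spleens 24 of the 111 rose and 3 fell (21.9% and 22.7% over all genes tested). The median log2 change was 0.24 in KO and 0.55 in WT spleens, and 6 segments rose in both. The number called in either direction was 12 in KO spleens (41.6% over all genes), and 7 without KO day 0 replicate 1. In WT spleens it was 27 (44.6% over all genes), but 13 without WT day 0 replicate 2 and 15 without WT day 1 replicate 1.

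By day 5, 25 of the 111 tested segments were higher and 8 lower than on day 0 in KO spleens (22.8% and 22.1% over all genes tested). In WT spleens 55 of the 111 were higher and 2 lower (21.5% and 18.1% over all genes tested). The medians were 0.27 and 0.91, and 20 segments were higher in both. The 33 calls in KO spleens (44.9% over all genes in either direction) became 18 without KO day 0 replicate 1 and 20 without KO day 5 replicate 2. Against day 2, no segment was higher on day 5, while 105 were lower in KO and 87 in WT spleens (16% and 13.1% of all genes lower, 18.4% and 16.2% higher, 34.4% and 29.3% in either direction). Without the library labelled KO day 2 replicate 1, 84 were called in KO spleens with a median of -1.74, and Igkv19-93, Igkv4-55, Igkv2-116, Igkv3-1 and Igkv3-4 were among those that lost the call. At an unadjusted p under 0.05, 106 segments in KO and 94 in WT spleens differed between days 5 and 2, with no share over all genes at that threshold beside them.

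**Figure D2:**
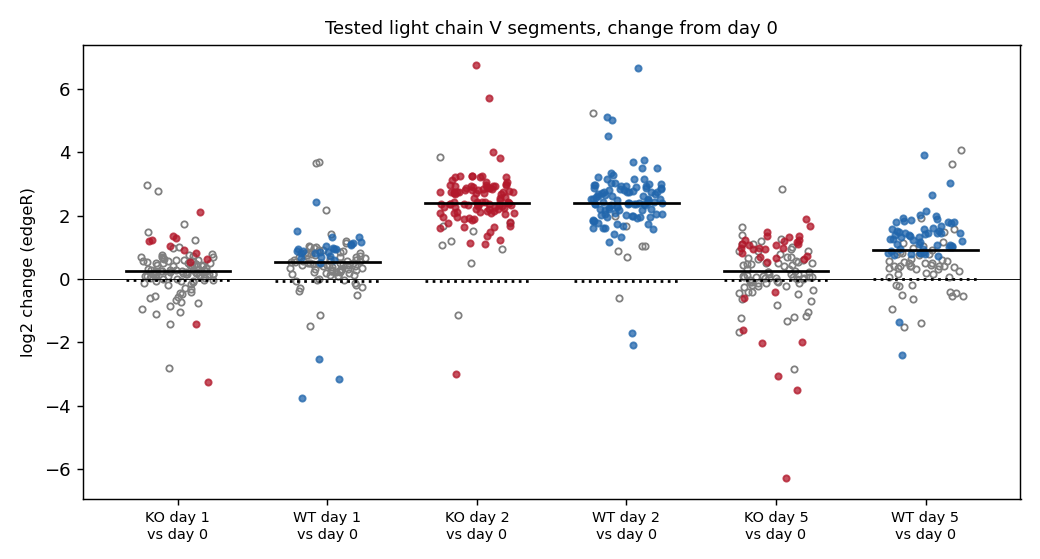
log2 change from day 0 of the 111 tested V segments in each genotype and day; filled points (KO red, WT blue) passed an adjusted p of 0.05 and open points did not, solid lines are medians of the segments and dotted lines medians of all genes. The medians on day 2 are 2.39 (KO) and 2.41 (WT).

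The lambda segment Iglv1 had the most counts of any V segment in all 16 libraries. Its level in KO libraries was 41.2 and 51.6 CPM at day 0, 87.6 and 102 at day 1, 362 and 259 at day 2 and 86.0 and 109 at day 5. In WT libraries it was 61.3 and 39.0 CPM at day 0, 99.0 and 92.6 at day 1, 404 and 323 at day 2 and 128 and 143 at day 5. No treated library overlapped the day 0 libraries of its genotype. Iglv1 rose on day 2 by a log2 of 2.74 in KO (SE 0.23, adjusted p = 2.77e-07) and 2.86 in WT spleens (SE 0.23, adjusted p = 2.33e-07), and was higher on day 5 by 1.07 and 1.44. Without the library labelled KO day 2 replicate 1 the KO day 2 change was 2.48. Per length (FPKM), Iglv1 was the highest V segment in 15 of the 16 libraries, and in WT day 5 replicate 2 Igkv5-39 stood at 386 FPKM and Iglv1 at 370.3 FPKM.

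Iglv1 also took a larger share of V counts in the treated groups. It held 7.75% ± 0.468 of V counts in KO spleens at day 0, 12.8% ± 0.625 at day 1, 9.67% ± 0.492 at day 2 and 11.8% ± 0.313 at day 5 (SD, n = 2). WT spleens gave 8.33% ± 1.32 at day 0, 10.9% ± 1.08 at day 1, 11.0% ± 0.0877 at day 2 and 10.7% ± 1.07 at day 5 (SD, n = 2). In each genotype the treated libraries lay above both day 0 libraries. Over both genotypes, days 2 and 5 together were 2.75 percentage points above day 0, the largest gain of any V segment.

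Iglv2, the near copy of Iglv1, and Iglv3, which is less like them, also rose on day 2, with smaller log2 changes. Iglv2 had 73.8 and 59.9 CPM in KO day 2 libraries, against 15.7 and 20.2 on day 0, a log2 change of 1.90 (SE 0.17, adjusted p = 4.35e-08). Iglv2 had 85.4 and 60.4 CPM in WT day 2 libraries, against 15.1 and 12.6 on day 0, a log2 change of 2.39 (SE 0.17, adjusted p = 4.75e-09). Iglv3 had 75.1 and 64.1 CPM in KO day 2 libraries, against 31.3 and 33.3 on day 0, a log2 change of 1.11 (SE 0.19, adjusted p = 1.48e-04). Iglv3 had 90.8 and 63.6 CPM in WT day 2 libraries, against 27.5 and 23.6 on day 0, a log2 change of 1.60 (SE 0.19, adjusted p = 5.27e-06). The KO changes were 1.74 for Iglv2 and 0.99 for Iglv3 without the library labelled KO day 2 replicate 1, both still called. Both segments separated day 2 from day 0 without overlap, and the changes of Iglv3 were under the medians of 2.39 (KO) and 2.41 (WT) of the tested V segments.

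Iglv3 lost the most share of all V segments. It held 5.64% and 5.21% of V counts in KO libraries at day 0, 2.89% and 3.64% at day 1, 1.93% and 2.47% at day 2 and 3.24% and 2.91% at day 5. In WT libraries it held 4.15% and 4.48% at day 0, 2.83% and 3.58% at day 1, 2.46% and 2.18% at day 2 and 3.51% and 1.95% at day 5. All 12 treated libraries lay below the 4 day 0 libraries. On days 1 and 5 the level of Iglv3 itself did not pass the test in either genotype (log2 changes of -0.40 and -0.35 in KO spleens and 0.14 and 0.40 in WT spleens).

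Among kappa segments, Igkv14-126 made the largest gain in share. In mice its light chain pairs with the heavy chain segment Ighv11-2 in B1 cells that bind phosphatidylcholine. It stood at 4.11 and 5.48 CPM in KO libraries at day 0, 11.7 and 10.2 at day 1, 97.0 and 56.2 at day 2 and 12.7 and 8.82 at day 5. WT libraries stood at 4.71 and 5.95 CPM at day 0, 13.7 and 13.4 at day 1, 88.0 and 58.5 at day 2 and 18.4 and 19.5 at day 5. The day 2 log2 change was 4.0 in KO (SE 0.31, adjusted p = 6.16e-07) and 3.77 in WT spleens (SE 0.30, adjusted p = 1.03e-06), and Igkv14-126 was also called higher on days 1 and 5 in both. The day 1 call in KO spleens was lost without KO day 0 replicate 1 (adjusted p = 0.0524), and the KO day 2 change was 3.56 without the library labelled KO day 2 replicate 1. Its share was 2.33% ± 0.228 on day 2 against 0.799% ± 0.083 on day 0 in KO, and 2.20% ± 0.268 against 0.92% ± 0.295 in WT spleens (SD, n = 2).

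Igkv4-91, which pairs with Ighv12-3 in the same kind of mouse B1 cell, rose on day 2 by a log2 of 3.24 in KO (SE 0.58, adjusted p = 0.0015) and 3.69 in WT spleens (SE 0.59, adjusted p = 8.75e-04). KO libraries had 46.4 and 30.6 CPM on day 2, against 4.17 and 3.95 on day 0, and the change was 2.91 (adjusted p = 0.01) without the first of them. WT libraries had 52.4 and 31.1 CPM on day 2, against 2.94 and 3.49 on day 0. On day 1, WT replicate 1 had 28 CPM and replicate 2 had 7.38. The WT day 1 change of 2.45 became 1.21 without replicate 1, with both values past the test, and missed it when only those groups were fitted (adjusted p = 0.103).

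The heavy chain partners were looked up after these values had been seen. Ighv11-2 had 70.5 and 35.8 CPM in KO day 2 libraries, against 2.76 and 2.55 on day 0, and 72.6 and 36.8 in WT day 2 libraries, against 3.49 and 3.46 on day 0. Its log2 change was 4.32 in KO (SE 0.40, adjusted p = 8.98e-06; 3.75 without the library labelled KO day 2 replicate 1) and 3.97 in WT spleens (SE 0.39, adjusted p = 1.54e-05). Ighv12-3 rose in WT spleens (3.71, SE 0.99, adjusted p = 0.0151) but did not pass the test in KO spleens (1.73, SE 0.89, adjusted p = 0.141), where 1 of the day 0 libraries stood at 9.20 CPM and the other at 0.906. Heavy and light V segment counts come from a pool of cells, so pairing within a cell was not measured.

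**Figure D3:**
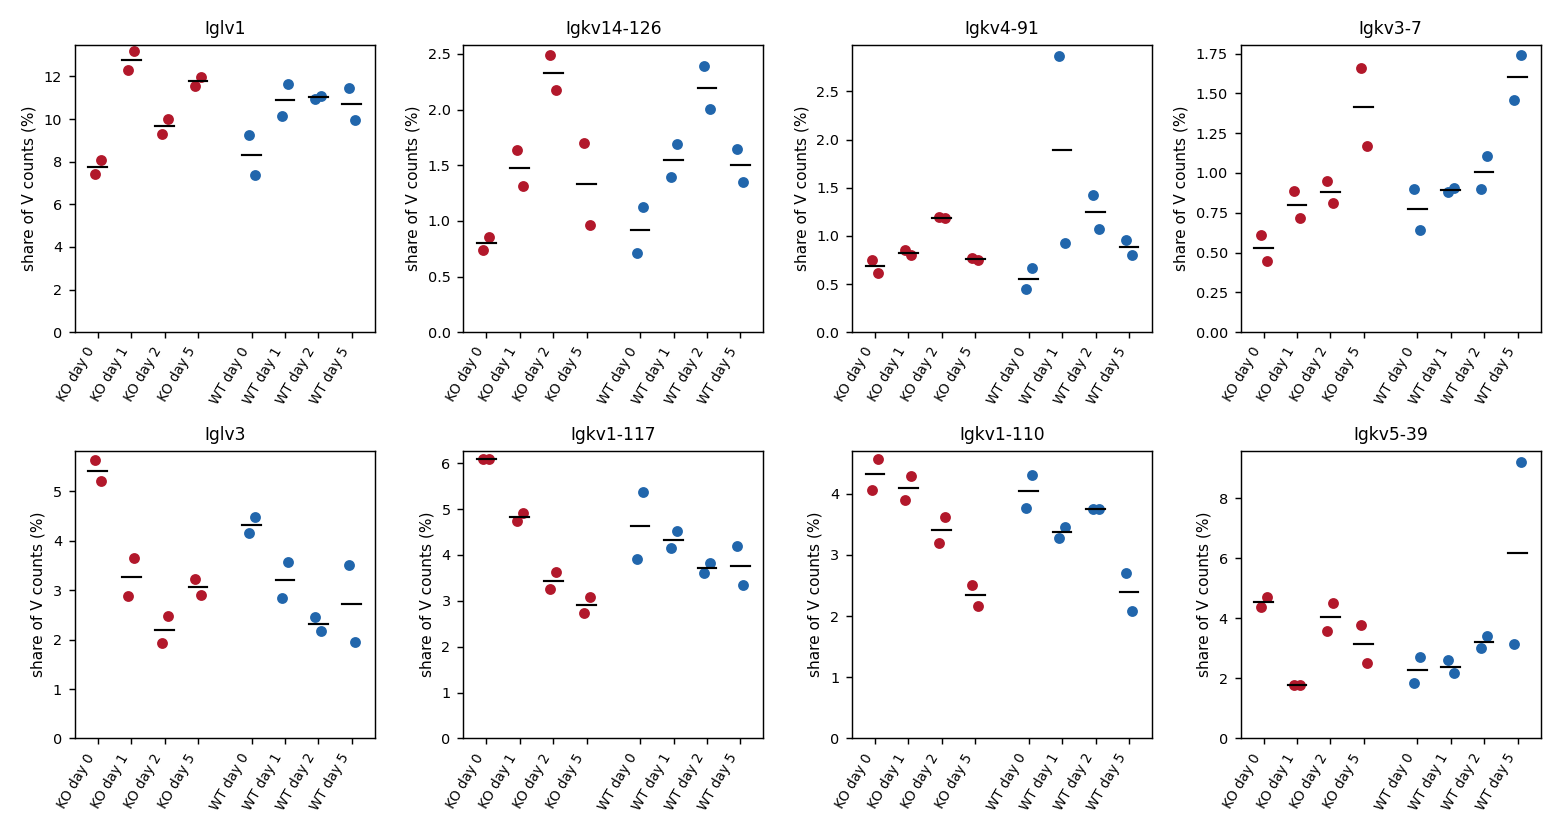
Share of V counts (percent) held by 8 segments in each library, KO in red and WT in blue by day of treatment; points are libraries and lines means of 2, with an axis from 0 in each panel. Iglv1, Igkv14-126, Igkv4-91 and Igkv3-7 in the top row are higher on day 2 than on day 0 in their means, Iglv3, Igkv1-117 and Igkv1-110 are lower, and Igkv5-39 reaches 9.20% in 1 WT day 5 library.

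Igkv5-39 was dominated by a single library on day 5. WT day 5 libraries had 35.2 and 133 CPM, a share of 3.16% and 9.20%, whose gap of 6.04 points was the widest between replicates for any segment. The WT day 5 log2 change of 2.66 (SE 0.53, adjusted p = 0.0039) was 1.40 without replicate 2, still past the test, and missed it when only those groups were fitted (adjusted p = 0.163). KO day 5 libraries had 28.1 and 22.9 CPM, against 24.2 and 30.0 on day 0. Other wide gaps were those of Igkv19-93 between WT day 0 libraries (4.26% and 2.08%), Igkv4-91 between WT day 1 libraries (2.86% and 0.928%), Igkv3-4 between WT day 0 libraries (2.60% and 0.795%) and Igkv12-89 between WT day 1 libraries (2.50% and 0.80%). The median gap over segments was 0.0424 to 0.135 points across the 8 groups.

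The Igkv3 family, 18.4 to 224 kb from Igkj1, held a larger share on day 5 than on day 0, and the Igkv1 family, 711 to 3128 kb from it, a smaller one. Over the 4 libraries of both genotypes a day, the 13 segments of Igkv3 held a mean of 6.26% of V counts at day 0, 7.01% at day 1, 8.89% at day 2 and 10.1% at day 5. Day 5 libraries ran from 9.27% to 11.0% and day 0 libraries from 5.33% to 8.27%, without overlap. On day 2, all 11 tested rose in KO and 10 of the 11 in WT spleens, where 24.1% and 22.3% of all genes tested were called higher (median log2 changes of 3.23 and 2.98). In KO spleens 11 still rose without the library labelled KO day 2 replicate 1, with a median of 2.73. On day 5, 5 of the 11 in KO and 6 in WT spleens were higher than on day 0 (22.8% and 21.5% over all genes) and none was lower (22.1% and 18.1% over all genes).

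Igkv3-7 showed this pattern in both genotypes. KO libraries had 3.37 and 2.86 CPM at day 0, 6.29 and 5.55 at day 1, 36.9 and 21 at day 2 and 12.4 and 10.7 at day 5. WT libraries had 5.95 and 3.40 CPM at day 0, 8.58 and 7.20 at day 1, 33.1 and 32.3 at day 2 and 16.3 and 25.1 at day 5. Day 5 stayed above day 0 without overlap, by a log2 of 1.88 in KO (SE 0.32, adjusted p = 5.57e-04) and 2.16 in WT spleens (SE 0.31, adjusted p = 1.81e-04). Igkv3-2, Igkv3-4 and Igkv3-12 were among the 6 segments with the largest gains, of 0.597, 0.591 and 0.58 points between day 0 and the mean of days 2 and 5 over both genotypes. For Igkv3-4 the mean share was 0.829% at day 0, 2.06% on day 2 and 1.45% on day 5 in KO spleens. In WT spleens it was 1.70%, 1.63% and 2.29%, with day 0 libraries at 2.60% and 0.795%.

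Other Igkv3 segments also rose on day 2. Igkv3-9 had 75 and 51 counts in WT day 2 libraries, against 2 and 3 counts on day 0, a ratio of 32.7 per fragment with an exact 95% counting interval of 13.6 to 102. Igkv3-1 had 14.2 and 5.11 CPM in KO day 2 libraries, against 1.22 and 0.754 on day 0, a log2 change of 3.27 (SE 0.55, adjusted p = 5.34e-04) that was 2.35 without the library labelled KO day 2 replicate 1 (adjusted p = 4.75e-04). Igkv3-4 had 102 and 38.9 CPM in KO day 2 libraries, against 4.49 and 5.43 on day 0, a log2 change of 3.83 (SE 0.80, adjusted p = 0.00403) that was 2.97 without that library (adjusted p = 0.0225). In both segments the library labelled KO day 2 replicate 1 held over 2 times the CPM of the other. In the Igkv4 family, Igkv4-62 rose by 3.27 in KO spleens (adjusted p = 0.00109), or 2.26 without the same library (adjusted p = 0.0105), and Igkv4-73 by 4.50 in WT spleens (adjusted p = 3.54e-05), where the libraries held 2.02 and 8.79 CPM on day 2, against 0.199 and 0.27 on day 0. The Igkv4-73 value was 3.11 without WT day 2 replicate 2, still past the test.

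The 13 Igkv1 segments held a mean of 14.7% of V counts at day 0, 12.6% at day 1, 12% at day 2 and 8.93% at day 5. Day 5 libraries ran from 8.14% to 10.5% and day 0 libraries from 12.2% to 15.9%, again without overlap. Levels still rose on day 2 for 7 of the 9 tested in KO spleens (24.1% higher over all genes), with a median log2 change of 1.65. The median was 1.56 without the library labelled KO day 2 replicate 1. In WT spleens 7 of the 9 rose (22.3%) and 1 fell (23.0% lower over all genes). On day 5, 4 of the 9 tested were below day 0 in KO spleens and none was called higher, against 22.1% lower and 22.8% higher over all genes. In WT spleens 1 was higher and none lower, against 21.5% and 18.1% over all genes. The interaction of genotype and day 5 was not called for any V segment.

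Igkv1-117 had the highest mean count of the kappa segments and lost 1.91 points of share between day 0 and the mean of days 2 and 5. KO libraries had 33.8 and 39.0 CPM at day 0, 33.6 and 38.1 at day 1, 127 and 93.8 at day 2 and 20.3 and 28.2 at day 5. WT libraries had 25.9 and 28.3 CPM at day 0, 40.5 and 35.9 at day 1, 133 and 111 at day 2 and 46.7 and 48.1 at day 5. Its day 5 level was lower than on day 0 in KO (log2 change -0.59, SE 0.16, adjusted p = 0.0068) and higher in WT spleens (0.81, SE 0.16, adjusted p = 6.75e-04), without overlap in either. The KO call was lost without KO day 0 replicate 2 (adjusted p = 0.104) or KO day 5 replicate 1 (adjusted p = 0.215).

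Igkv1-110, its near copy, lost 1.21 points of share on the same measure. Igkv1-135 held 3.84% ± 0.029 of V counts in KO spleens on day 2 and 2.80% ± 0.51 on day 5, against 3.90% ± 0.123 on day 0, and 4.65% ± 0.74 in WT spleens on day 2 and 2.60% ± 0.599 on day 5, against 3.76% ± 0.431 on day 0 (SD, n = 2). Its mean share was thus lower on day 5 in both genotypes, but on day 2 it was higher in WT spleens and nearly level in KO spleens. Igkv1-110 had 18.8 and 19.8 CPM in KO day 5 libraries, against 22.6 and 29.3 on day 0, and 30.2 and 30.1 in WT day 5 libraries, against 25 and 22.7 on day 0. Its KO day 5 change of -0.43 (adjusted p = 0.0383) did not pass with DESeq2 (-0.37, adjusted p = 0.0802) and was -0.17 without KO day 0 replicate 2 (adjusted p = 0.487). Igkv1-122 was lower on day 5 in KO spleens by a larger ratio, with 0.984 and 1.21 CPM against 6.11 and 2.63 on day 0, a log2 change of -2.01 (SE 0.31, adjusted p = 4.22e-05) that was -1.20 without KO day 0 replicate 1. Igkv9-123 (-2.0, adjusted p = 7.67e-04) and Igkv4-77 (-1.62, adjusted p = 0.0148) were also lower there, the second call being lost without KO day 0 replicate 1 or KO day 5 replicate 2.

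Fewer segments were called on day 1 than on day 2, and some of those calls rested on 1 library. Igkv8-16 had 3.70 and 5.82 CPM in KO day 1 libraries, against 1.88 and 2.18 on day 0, a log2 change of 1.24 (SE 0.30, adjusted p = 0.00416). In WT day 1 libraries it had 5.47 and 5.6 CPM, against 2.83 and 1.67 on day 0, a log2 change of 1.32 (SE 0.29, adjusted p = 0.00187). Both genotypes thus separated day 1 from day 0 for this segment. Igkv8-34 rose in WT spleens (1.51, adjusted p = 0.0204), but its change was 0.85 without WT day 1 replicate 1 (adjusted p = 0.239). Igkv7-33 fell there (-3.15, adjusted p = 0.0121), but its change was -0.66 without WT day 0 replicate 1 (adjusted p = 0.461).

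Between days 2 and 5 the greatest falls were in segments of low level. Igkv4-62 fell by 3.45 on the log2 scale in KO spleens and by 2.82 in WT spleens, where the call was lost without WT day 2 replicate 2 (-1.64, adjusted p = 0.0829). Igkv9-123 fell by 3.25 in KO spleens and Igkv4-73 by 4.95 in WT spleens, the second missing the threshold when only those groups were fitted (adjusted p = 0.0721).

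Over the 96 kappa segments with a mean of 20 or more counts, the day 5 change was related to distance from Igkj1 with a Spearman rho of -0.44 in KO and -0.32 in WT spleens. On day 2 rho was -0.41 in KO and -0.18 in WT spleens. Negative values mean that segments farther from the J segments tended to have lower log2 changes. KO against WT at day 0, without treatment, already gave a rho of 0.28. As day 0 is the baseline of the changes, the KO and WT values cannot be compared as responses to treatment. Segments share their libraries and families, so these are descriptions of the locus in these libraries, with no test. The relation to mean count was 0.35 in KO and 0.27 in WT spleens on day 5.

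**Figure D4:**
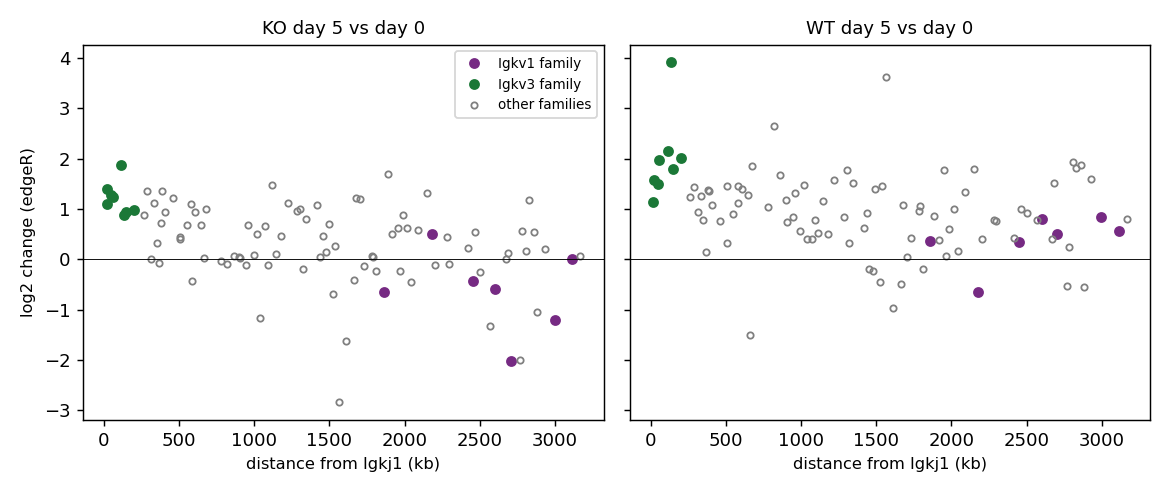
log2 change on day 5 against day 0 of 96 kappa V segments by distance from Igkj1 in kb, in KO (left) and WT (right) spleens; purple points are the Igkv1 family, green the Igkv3 family and open grey circles other families. The green points near Igkj1 lie above 0 in both panels, and several purple points lie below 0 in KO spleens.

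Pseudogenes held little of the signal. They made up 0.565% and 0.672% of V counts in KO libraries at day 0, 0.444% and 0.459% at day 1, 0.261% and 0.392% at day 2 and 0.118% and 0.159% at day 5. In WT libraries they made up 0.454% and 0.677% at day 0, 0.304% and 0.447% at day 1, 0.298% and 0.592% at day 2 and 0.18% and 0.213% at day 5. All 4 day 5 libraries lay below the day 0 libraries. The segment called lower against day 0 on all 3 treated days in both genotypes was a pseudogene, Igkv2-107, named after its values were seen. It had 0.0564 and 0.103 CPM in KO day 2 libraries, against 0.674 and 0.65 on day 0, and 0.175 and 0.142 in WT day 2 libraries, against 0.752 and 0.603 on day 0. Its mean of 11.5 counts is under the 20 set for naming, and its 0.0564 CPM is under the floor of 3 counts.

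The spread of counts over segments was measured as the effective number of segments, the inverse of the sum of squared shares, which equals the number of segments when all hold the same share. It was 35.6 ± 1.39 in KO spleens at day 0, 29.8 ± 1.43 at day 1, 37.6 ± 1.88 at day 2 and 32.8 ± 0.64 at day 5 (SD, n = 2). In WT spleens it was 38.1 ± 0.721 at day 0, 34.5 ± 2.53 at day 1, 34.2 ± 0.328 at day 2 and 32.1 ± 1.88 at day 5 (SD, n = 2). The 10 most abundant held 36.9% to 39.6% of V counts on day 2, against 39.9% to 44.9% on day 0. Between 110 and 126 of the 163 segments had a count in a given library.

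Both kappa and lambda V segments were higher on day 2 than on day 0, without overlap. Kappa V segments summed to 2791 ± 828 CPM in KO spleens on day 2, against 501 ± 47.6 on day 0, and lambda V segments to 447 ± 90.6 against 96.7 ± 12 (SD, n = 2). In WT spleens kappa V segments summed to 2787 ± 453 CPM on day 2, against 505 ± 74.7 on day 0, and lambda V segments to 514 ± 94.3 against 89.6 ± 20.3 (SD, n = 2). The lambda share of V counts was 16.2% ± 0.399 in KO spleens at day 0, 19.5% ± 1.17 at day 1, 14.0% ± 1.17 at day 2 and 18.7% ± 0.217 at day 5. In WT spleens it was 15.0% ± 1.02 at day 0, 17.3% ± 2.05 at day 1, 15.5% ± 0.281 at day 2 and 15.7% ± 2.78 at day 5 (SD, n = 2 in all 8 groups).

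The constant regions gave another picture. Igkc had 9703 and 6480 CPM in KO day 2 libraries, against 1010 and 1087 on day 0, and 10410 and 7591 in WT day 2 libraries, against 1410 and 974 on day 0. The summed lambda constant regions had 1155 and 914 CPM in KO day 2 libraries, against 353 and 386 on day 0, and 1365 and 1072 in WT day 2 libraries, against 435 and 325 on day 0. The lambda share of constant region counts was 26.0% ± 0.206 in KO spleens at day 0, 25.2% ± 0.91 at day 1, 11.5% ± 1.22 at day 2 and 18.2% ± 0.41 at day 5. In WT spleens it was 24.3% ± 1.02 at day 0, 23.4% ± 3.84 at day 1, 12% ± 0.555 at day 2 and 13.9% ± 3.09 at day 5 (SD, n = 2 in all 8 groups).

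Over both genotypes, the lambda share of constant region counts was 11.7% on day 2 and 25.2% on day 0, a difference of -13.4 points in an exact two-sided permutation test of 4 against 4 libraries (p = 0.0286, the smallest of 70 splits; adjusted over 4 tests, 0.0571). With days permuted within each genotype the exact permutation p was 0.0556, the smallest of 36 splits, and adjusted 0.103 for both day 2 and day 5. Day 5 lay 9.11 points below day 0, with the same p and adjusted p in each form of the test, and the difference on day 1 was -0.871 points (exact permutation p = 0.6). All 4 day 2 libraries and all 4 day 5 libraries lay below the day 0 libraries. The KO minus WT difference permuted within days was 1.81 points (exact permutation p = 0.0772, adjusted 0.103). No adjusted value passed 0.05 with all libraries. Without the library labelled KO day 2 replicate 1, day 2 minus day 0 was -13.1 points (exact permutation p = 0.0286, adjusted 0.0381). Its unadjusted p was the smallest possible with and without that library. The adjusted value moved only because the p of the genotype test, adjusted in the same set, was lower. The KO minus WT difference was then 3.18 points (exact permutation p = 0.017, adjusted 0.0381). Without WT day 1 replicate 2 the KO minus WT difference was 2.91 points (exact permutation p = 0.0139, adjusted 0.0381). In both cases the days were unequally filled.

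The ratio of V to C counts moved up for lambda and down for kappa, without overlap between days 2 and 0. Lambda V counts were 0.431 ± 0.0167 of lambda C counts in KO spleens on day 2, against 0.261 ± 0.0161 on day 0, and 0.421 ± 0.00584 in WT spleens on day 2, against 0.235 ± 0.00527 on day 0 (SD, n = 2). Kappa V counts were 0.344 ± 0.00536 of Igkc counts in KO spleens on day 2, against 0.477 ± 0.0205 on day 0, and 0.312 ± 0.0187 in WT spleens on day 2, against 0.43 ± 0.0486 on day 0 (SD, n = 2). The library of KO day 2 replicate 2 by itself had 0.419 for lambda and 0.34 for kappa. Iglc1 alone, the main partner of Iglv1 with Iglc3, had 481 and 360 CPM in KO day 2 libraries, against 84.9 and 96.0 on day 0. Iglc3 had 282 and 246 CPM there, against 124.6 and 132.5 on day 0, and Iglc2 had 392 and 307, against 143 and 157. Iglc2 and Iglc3 are 94.47% identical, so the split of fragments between them is uncertain.

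**Figure D5:**
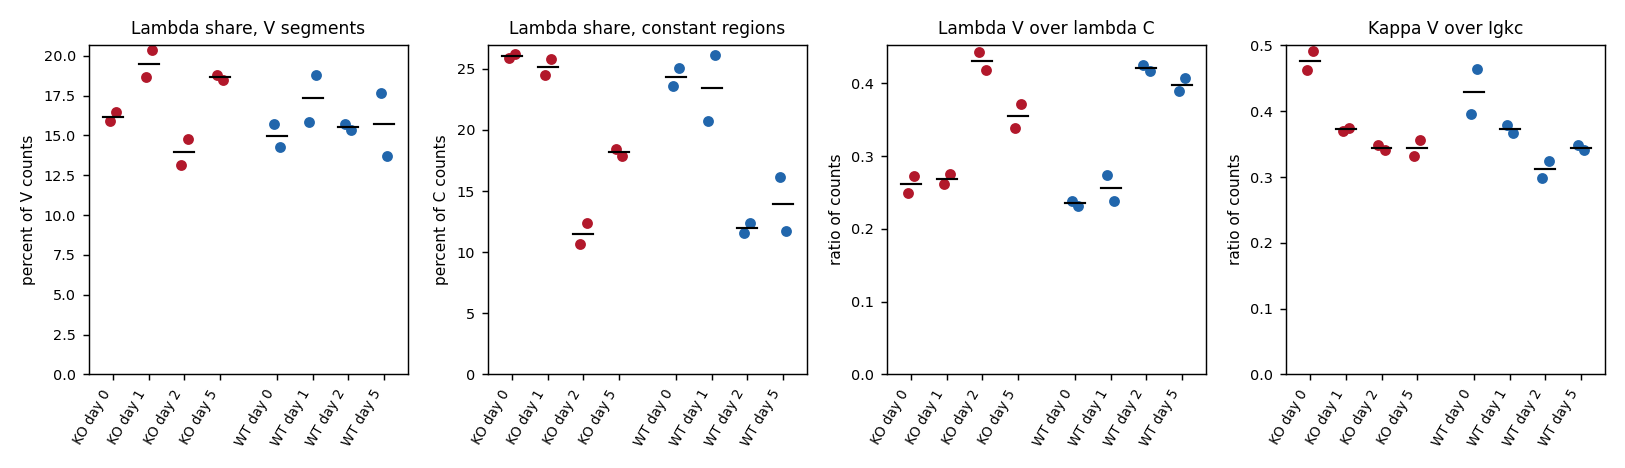
Lambda share of V counts and of constant region counts (percent), then lambda V over lambda C and kappa V over Igkc counts (ratios), in each library, KO in red and WT in blue by day; points are libraries and lines means of 2, and all axes start at 0. The lambda share of constant region counts is 10.6% to 12.4% on day 2 and 23.6% to 26.2% on day 0, whereas the lambda share of V counts is 13.2% to 15.7% and 14.3% to 16.4% on those days.

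KO and WT spleens were compared on each day, and no V segment passed the test on any of them. Over all genes, 0.0213% were called on day 0 (0.016% higher and 0.00534% lower in KO spleens) and 0.187% on day 1 (0.144% higher and 0.0427% lower). On day 2 it was 0.0%, and on day 5 0.00534%, all of it lower in KO spleens. The median log2 difference of the 111 tested segments, KO against WT, was 0.02 at day 0, -0.28 at day 1, 0.02 at day 2 and -0.63 at day 5, against -0.02 to 0.00 over all genes. At an unadjusted p under 0.05, 11 segments differed at day 0, 9 at day 1, 2 at day 2 and 39 at day 5. DESeq2 called 1, 1, 1 and 9 on these days. The counts at an unadjusted p and with DESeq2 have no share over all genes beside them, so they are not read as a genotype difference.

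On day 5, 102 of the 111 tested segments had a lower fitted level in KO than in WT spleens. All segments come from the same libraries and share their V segment total, so they are not replicates of the genotype. The summed V segments were at 745 and 913 CPM in KO and 1115 and 1442 CPM in WT day 5 libraries, without overlap. Igkv1-117 came nearest to a call, with a log2 difference of -0.97 (SE 0.16, adjusted p = 0.117). Igkv5-39, with 28.1 and 22.9 CPM in KO and 35.2 and 133 CPM in WT day 5 libraries, differed by -1.72 (SE 0.51, adjusted p = 0.568). Without the low-count filter 24 segments passed on day 5, a count with no share over all genes to set beside it.

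The interactions, which compare the change from day 0 between genotypes, called no V segment (0.171% of all genes on day 1, with 0.128% higher and 0.0427% lower, and 0.0% on days 2 and 5). Their medians over the tested segments were -0.30, 0.02 and -0.65. At an unadjusted p under 0.05, 11, 10 and 32 segments passed, and DESeq2 called 2 on day 1 and 4 on day 5. The genotype difference averaged over days called none either (0.0267% of all genes, 0.0107% higher and 0.016% lower, median -0.24, 26 segments at an unadjusted p under 0.05). Here too, counts at an unadjusted p and with DESeq2 lack a share over all genes and are not read as a genotype difference.

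Related genes were counted in lists. On day 2, 24.1% of all genes were called higher and 25.6% lower in KO spleens, and 22.3% and 23.0% in WT spleens. Of 24 immunoglobulin constant, joining and J chain genes, 17 rose and 2 fell on day 2 in KO spleens (23 tested, median log2 change 1.92) and 17 rose and 1 fell in WT spleens (median 2.07). Ighm, the IgM heavy chain, rose by 3.56 in KO (SE 0.24, adjusted p = 2.08e-09) and 3.21 in WT spleens, and Jchain, which links IgM into polymers, by 2.94 (SE 0.42, adjusted p = 2.99e-04) and 2.90. Of 20 plasma cell genes, 18 rose and 1 fell in each genotype (19 tested, medians 2.94 in KO and 2.77 in WT spleens). Examples are Derl3 and Creld2, which serve the folding and export of secreted proteins, with log2 changes of 4.98 and 4.16 in KO and 4.39 and 4.0 in WT spleens.

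Most genes of the mature B cell list fell on day 2. Shares over all genes were 24.1% higher and 25.6% lower in KO spleens, and 22.3% and 23.0% in WT spleens. Of 20 mature B cell genes, 1 rose and 15 fell on day 2 in KO (19 tested, median -0.79) and 2 rose and 13 fell in WT spleens (median -0.56). Leaving out the library labelled KO day 2 replicate 1, the KO counts on day 2 were 17 higher and 2 lower for the constant, joining and J chain list, 17 and 1 for the plasma cell list and 1 and 14 for the mature B cell list. Fcer2a (CD23) and Cr2 (CD21), receptors of mature B cells, fell by 2.50 and 2.18 on the log2 scale in KO and by 2.18 and 2.18 in WT spleens. Of 14 surrogate light chain, recombination and editing genes, 1 rose and 3 fell in KO (10 tested) and 1 rose and 4 fell in WT spleens, against the same shares over all genes. Rag1, a subunit of the recombinase that joins V to J, had 0.0564 and 0.257 CPM in KO day 2 libraries, against 1.22 and 2.03 on day 0, and 0.234 and 0.284 CPM in WT day 2 libraries, against 2.08 and 3.03 on day 0. The Rag1 value of 0.0564 CPM is under the floor of 3 counts. Vpreb3, expressed in B cell precursors, fell by 2.55 in KO and 1.89 in WT spleens.

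Other lists were mixed on day 2. Among all genes, 24.1% were called higher and 25.6% lower in KO spleens, and 22.3% and 23.0% in WT spleens. Of 17 transcription factors that act at light chain promoters and enhancers, 5 rose and 5 fell in KO and 6 rose and 5 fell in WT spleens, not far above those shares. Among those that rose were Pou2af1, the coactivator at the octamer of V promoters, by 1.26 in KO and 1.37 in WT spleens, and Irf4, which acts at light chain enhancers, by 1.31 and 1.33. They do not stand for the list, of which 5 fell in each genotype and whose median log2 changes were -0.14 in KO and -0.18 in WT spleens. Of 15 marginal zone and B1 cell genes, 5 rose and 7 fell in each genotype (median log2 changes -0.13 in KO and -0.14 in WT spleens). Cd5, a marker of B1a and T cells, was among those that fell, by log2 changes of -2.0 in KO and -2.25 in WT spleens. It is also in the T cell list, and 5 genes rose, so it does not stand for the marginal zone and B1 list. Of 16 germinal centre and switch genes, 7 rose and 3 fell in KO (14 tested) and 7 rose and 4 fell in WT spleens. Of 18 macrophage, dendritic cell and neutrophil genes, 1 rose and 11 fell in KO and 1 rose and 13 fell in WT spleens.

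On day 5 the plasma cell list had 9 genes higher and 3 lower than on day 0 in KO spleens (median 0.54) and 13 higher and 2 lower in WT spleens (median 0.91). Among all genes, 22.8% were higher and 22.1% lower in KO spleens on that day, and 21.5% and 18.1% in WT spleens. Of the 19 mature B cell genes tested, 17 were lower in KO and 15 in WT spleens, and none was higher. Ighg2c, the constant region of a switched IgG, was higher by 4.43 in KO (SE 0.39, adjusted p = 8.16e-06) and 4.39 in WT spleens. No gene of the constant region, plasma cell or mature B cell lists was called between KO and WT spleens on any day. Their median log2 differences on day 5, KO against WT, were -0.55, -0.36 and -0.12. Of the other lists, 1 transcription factor and 1 macrophage, dendritic cell or neutrophil gene were called, on day 1, when 0.187% of all genes were called.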

How the data were processed

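Spleen RNA was measured in 16 libraries, 2 in each of 8 groups. Each library is a pool of 2 mice, and p-values measure the spread between these pools, whose cages and days are not stated. Per the file headers, the deposited tables give a fragment count and an FPKM value for each transcript, made by the authors. The submitters' processing notes name bcl2fastq 2.17.1.14, Trimmomatic, HISAT2, TopHat and mm10 without roles, and no source used here gives the counter or the annotation. Columns of unknown samples numbered 0. Sequences and positions come from GENCODE M21.

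Counts were taken for the transcript with the highest mean count per symbol. They were tested with edgeR 4.0.16 (R 4.3.3; quasi-likelihood F test, robust, filterByExpr, TMM scaling on total fragments, 1 mean per group, 8 residual degrees of freedom, Benjamini-Hochberg adjustment over 18744 genes) in 16 comparisons, with a biological coefficient of variation of 13.1%. The test was checked on simulated counts. Alternatives used DESeq2 1.42.0 and limma 3.58.1 on log2(FPKM + 0.1) for genes at 1 FPKM or more in 2 libraries. The lambda share of constant region counts was tested by exact two-sided permutation (scipy 1.17.1) in 4 tests. Intervals are 95% Wilson intervals and the floor is 3 counts.

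The members and lists were chosen with earlier results of these data known. Named segments were every Iglv, the 12 most abundant Igkv, up to 4 called risers and 4 called fallers of greatest size in each day comparison (mean of 20 or more counts), and the 6 largest gains and losses in share. Outside the segments, Eif2ak2, Igkc, Iglc1 to Iglc3, Ighm, Jchain and up to 4 genes per list were named. Igkv2-107, Ighv11-2 and Ighv12-3 were named after their values were seen.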

Additional observations from a re-analysis of the deposited data

How the results depend on the processing

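The number of V segments called kept within 1.5 times of its value for day 2 against day 0, day 5 against day 2 and WT day 5 against day 0 under every alternative run, and these were no low-count filter, other scalings, other transcript choices, a replicate block, DESeq2, limma on FPKM, only the compared groups and single libraries left out. The cause of the other shifts was not tested. In this paragraph the number called under an alternative was not set against the share of all genes called under the same setting. For WT day 1 (27) it was 56 with no filter, 55 with no composition scaling, 49 with limma and 46 with only the compared groups, and 13 to 30 with a library left out. For KO day 1 (12) it was 26 with no filter, 21 with DESeq2 and 32 with only the compared groups, and 7 to 10 with a library left out. For KO day 5 (33) it was 53 with only the compared groups, and 18 to 31 with a library left out. Where KO against WT called 0, no filter gave 4 on day 0, 4 on day 1, 1 on day 2, 24 on day 5 and 11 averaged over days. DESeq2 gave 1, 1, 1 and 9 on those days, only the compared groups gave 1 on days 0 and 5, and leaving out a library gave 0 to 1 on days 0, 1 and 2 and 0 to 3 on day 5. For the interactions, no filter gave 5, 3 and 14 on days 1, 2 and 5, DESeq2 gave 2 on day 1 and 4 on day 5, only the compared groups gave 1 on day 1, and leaving out a library gave 0 to 1 on days 1 and 5.

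With no composition scaling the median of all genes on day 1 moved to 0.10 in KO (from -0.04) and 0.22 in WT spleens (from -0.07), so day 1 counts there are relative to that shift: 4721 genes were higher and 2812 lower in KO (3882 and 3915 with it), and 6259 higher and 2253 lower in WT spleens (4107 and 4250 with it). With limma the medians were 0.15 and 0.29, with 4236 higher and 2132 lower in KO and 5683 and 1378 in WT spleens. The lambda share of constant region counts, with a library left out, differed from day 0 by -1.489 to 0.3206 points on day 1, -13.96 to -13.06 on day 2 and -9.913 to -7.675 on day 5. KO minus WT ran from 0.832 to 3.176, but with a library left out the days were unequally filled, so this range also carries differences between days. It was 2.929 and 3.176 without a KO day 2 library and 0.832 and 0.9441 without a WT day 2 library. With Iglc1 as the only lambda region, which was chosen after seeing the data, the differences were 1.268 points on day 1, -2.495 on day 2 and -1.736 on day 5, with adjusted p-values of 0.114, 0.0571 and 0.0571 (exact permutation). Replicate numbers were not used as pairs (28 group pairs, r from -0.21 to 0.333, 4 over 0.1). The highest r values were those of WT with KO at day 0 (0.333) and at day 2 (0.300). On days 1 and 5 the WT and KO pairs gave -0.179 and -0.161. Whether replicate numbers were linked within a day was not tested. A replicate block gave 14, 102 and 34 calls in KO and 29, 102 and 57 in WT spleens on days 1, 2 and 5 against day 0, 105 and 85 on day 5 against day 2, and 0 between genotypes. For the named genes, only changes already called in the main fit were rerun, so a gained call could not appear. Of their alternative values, 2377 kept direction and call, 129 lost the call and 0 reversed. Counts limit the segments left untested.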
